A study of Mus musculus with 50 samples.

Results

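Isg15, Uba7, Ube2l6, Herc6, Usp18 and Isg20 were followed across RAW264.7 macrophages that lacked SGK1, SGK3 or both kinases, at rest and after stimulation with DMXAA. These 6 genes were taken by name from the deposited tables, which hold 55416 genes. All 6 were found and all 6 passed the filter on low counts that left 18315 genes for testing.

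RAW264.7 is a mouse macrophage line, and DMXAA is an agonist of mouse STING, the adaptor that carries the signal of cytosolic DNA to interferon genes. RNA was sequenced from poly(A)-selected libraries of the same line in 3 labelled batches. In batch b1, control cells with an empty-vector sgRNA (EV) were left at rest (n = 3), stimulated with 10 μg/mL DMXAA for 2 h (n = 5), or given 500 nM of the SGK inhibitor Sanofi-14h for 2 h before the same DMXAA stimulation (n = 5). That batch also held resting (n = 3) and stimulated (n = 5) SGK3 KO cells and stimulated SGK1/SGK3 double KO cells (n = 5). Batch b2 held EV, SGK1 KO and double KO cells, with 3 resting libraries of each and 4, 4 and 3 stimulated ones. Batch b3 held 4 libraries marked as reruns, of which 1 had labels that disagree on its treatment and entered no group. The labels name 1 line per genotype and do not say whether it was a clone or a pool. They name DMSO as the vehicle of the pretreatment but not which libraries received it. Nothing in them says that replicates came from separate cultures, so the p-values measure the spread between these libraries, which may be technical.

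ISG15 is a ubiquitin-like protein that cells attach to other proteins after interferon stimulation. Uba7 encodes its activating (E1) enzyme, Ube2l6 its conjugating (E2) enzyme and Herc6 the main ISG15 ligase (E3) of mouse cells. Usp18 encodes the protease that removes ISG15 and that also restrains signalling at the type I interferon receptor, whereas Isg20 encodes an interferon-induced exonuclease outside the conjugation pathway. In macrophages all of these are known interferon-stimulated genes, and Isg15 can also be transcribed directly by IRF3 downstream of STING.

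The promoters are shown because the genes differed in how they responded to DMXAA and the windows differed in the interferon-related motifs they held. A link between the motifs and the responses was not tested. RefSeq start sites (assembly GRCm38.p6) were available for Isg15, Uba7, Ube2l6, Herc6 and Isg20. The 120 bases before each start are given 5′ to 3′ on the gene's strand, and capitals mark matches to GAAANNGAAA (the interferon-stimulated response element, ISRE) or AANNGAAA (the IRF core), read on both strands. For Isg20, which had 3 start sites in the table, the most upstream one is given.
Isg15, chr4:156200819-156200938, minus strand: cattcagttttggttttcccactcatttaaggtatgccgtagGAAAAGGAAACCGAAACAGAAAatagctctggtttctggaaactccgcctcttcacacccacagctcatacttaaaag
Uba7, chr9:107975447-107975566, plus strand: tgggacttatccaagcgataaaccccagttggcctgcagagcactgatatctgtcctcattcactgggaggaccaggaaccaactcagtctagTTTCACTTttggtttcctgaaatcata
Ube2l6, chr2:84798708-84798827, plus strand: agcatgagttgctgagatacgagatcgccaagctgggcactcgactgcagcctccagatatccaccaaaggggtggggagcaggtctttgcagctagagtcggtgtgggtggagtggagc
Herc6, chr6:57580872-57580991, plus strand: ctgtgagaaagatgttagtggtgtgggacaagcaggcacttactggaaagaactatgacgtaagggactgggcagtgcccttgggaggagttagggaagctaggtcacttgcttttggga
Isg20, chr7:78913304-78913423, plus strand: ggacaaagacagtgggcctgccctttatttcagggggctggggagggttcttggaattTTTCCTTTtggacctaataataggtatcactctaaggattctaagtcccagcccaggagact

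The Isg15 promoter held 3 overlapping ISRE matches, whose first bases lay at -78, -72 and -66 relative to the start. It also held 4 matches to the IRF core, 3 of them within the same stretch and 1 at -128, upstream of the 120 bases printed. An ISRE match of this form was present in 3.44% of 32851 promoter windows of 300 bases (250 before to 50 after the start), and an IRF core in 23.9%. Uba7 had 1 IRF core match at -27 and Isg20 1 at -62. The windows of the other Isg20 start sites held no match to the ISRE or the IRF core. The windows of Ube2l6 and Herc6 held neither motif, which says only that these letters are not in these windows.

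Library totals were 57859509 to 101068327 estimated counts in b1, 63461414 to 112007140 in b2 and 76295599 to 86754670 in b3. In 6 libraries of b2 (SGK1 KO at rest E and F, SGK1 KO with DMXAA P and R, double KO at rest H and double KO with DMXAA X), the log2 of the count scaled to library size (CPM) rose by more than 0.1 per doubling of gene length relative to the batch mean. Counts of results from b2 are therefore also given without these 6, called below the libraries with a length trend. No EV library and no library of b1 is among them. For comparisons among EV cells or within b1, leaving them out thus changes no compared library. It changes only the scaling, the filter and the spread of the shared fit. Other b2 libraries had the opposite trend, with a slope below -0.1. They were EV A, B, K, L and N, SGK1 KO with DMXAA O and double KO G, I and T, and EV B had the lowest slope (-0.23). These stayed in, so leaving out the 6 does not free the comparisons with EV cells from length trends. Sgk1, itself induced by DMXAA, lay at 45.6 to 54.1 CPM in stimulated EV cells of b1, at 18.9 to 24.1 CPM in the SGK3 KO, at 8.98 to 13.5 CPM with the inhibitor and at 3.02 to 5.86 CPM in the double KO. It was thus also lower in stimulated groups whose labels name no deletion of it, so that a low level alone does not check the deletion. In b2 it lay at 25.4 to 39.4 CPM in stimulated EV cells and at 1.82 to 6.79 and 1.74 to 3.09 CPM in stimulated SGK1 KO and double KO cells. Sgk3 was at 97.7 to 109 CPM in stimulated SGK3 KO cells and at 96.2 to 107 CPM in stimulated EV cells, and in the double KO of b1 at 117 to 120.1 CPM, higher than in EV cells (log2 0.23 ± 0.06 SE, edgeR adjusted p = 0.00392). A summed gene count does not check a small coding deletion. Of 8 macrophage markers, 7 were above 1 TPM in the median library, while Mertk was near 0 (at most 0.0177 TPM). Among markers of T cells, B cells, neutrophils, fibroblasts, epithelium and endothelium, none exceeded 1.99 TPM, the highest being Cd79a in stimulated EV cells, where Ms4a1, also a B cell marker, was at 0.

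The first question was which of the 6 genes responded to 2 h of DMXAA in control cells. In b1, Isg15, Usp18, Ube2l6, Herc6 and Isg20 rose and Uba7 did not pass the test, so 5 of 6 were called higher against 10.8% of all tested genes (edgeR quasi-likelihood test, Benjamini-Hochberg adjusted p below 0.05). The median log2 fold change of the 6 genes was 1.86, against 0.01 for all tested genes. Without EV rest library 2 or without library 3 the count was 3, because Ube2l6 and Isg20 were no longer called. In b2, Isg15 and Herc6 rose (2 of 6, against 4.74% of genes), and the median log2 fold change was 0.64. In the fit without the 6 libraries with a length trend, none of which is in these groups, the b2 count was 3 and included Usp18. It was 1 without EV rest library A or EV DMXAA library N, where Herc6 was no longer called.

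The knockout lines were tested the same way, each against its own resting cells. In the SGK3 KO, Isg15, Usp18, Herc6 and Isg20 rose, whereas Uba7 and Ube2l6 did not pass (4 of 6, against 8.58% of genes). In the SGK1 KO, Isg15 and Herc6 rose (2 of 6, against 12.5%) and Uba7 fell (1 of 6, against 11.6% of genes called lower). The double KO of b2 had the same pair higher, Isg15 and Herc6 (2 of 6, against 7.44%), and no member lower. Isg15 and Herc6 were thus called higher with DMXAA in each of the 5 line and batch combinations measured in both states. The counts of the SGK1 KO and the double KO were the same without the 6 libraries with a length trend, although only 1 SGK1 KO library at rest was then left, whose spread is assumed to be that of the other groups.

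**Figure D1:**
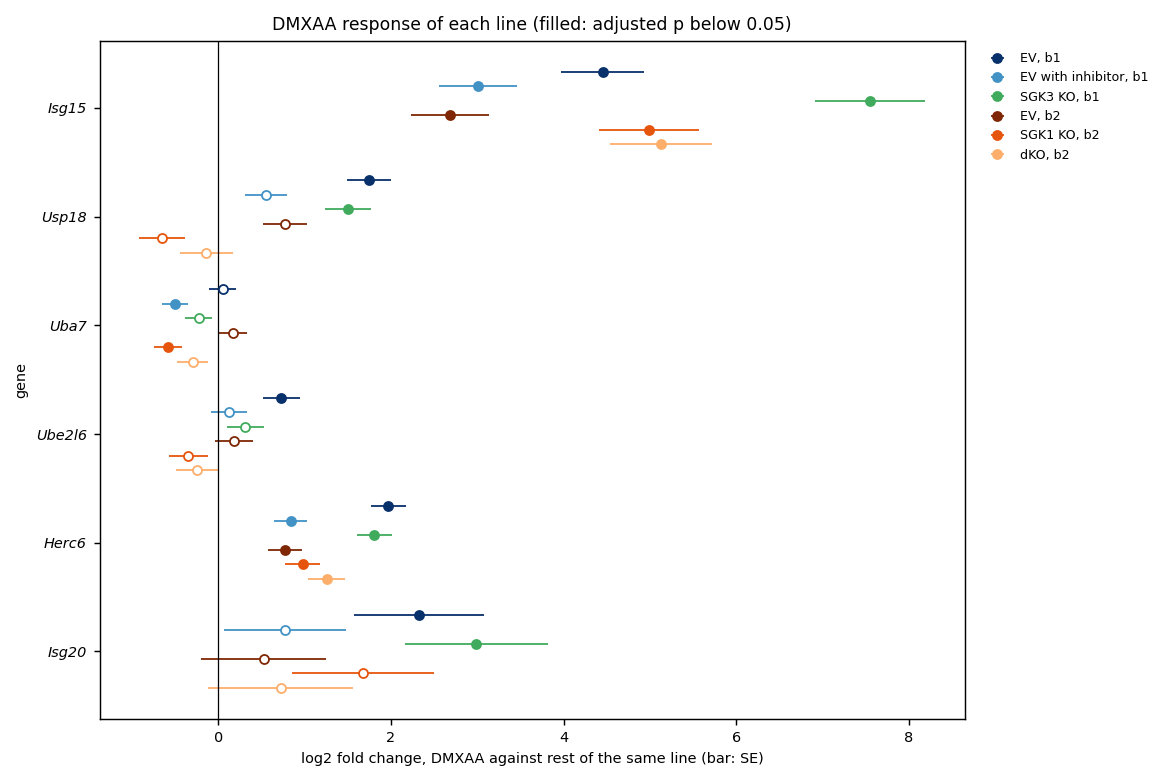
Log2 fold change with DMXAA against rest (x axis, bars are standard errors) for the 6 genes (y axis) in each line, filled where the adjusted p was below 0.05. The inhibitor points compare EV cells given inhibitor and DMXAA with resting EV cells given neither, so they hold the effects of both. Isg15 and Herc6 lie to the right of 0 in every line, and Uba7 lies within 0.58 of 0 on either side.

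The second question was how the lines differed from EV cells of the same batch. All comparisons within a batch share the EV libraries, so they are not independent of each other. At rest, the SGK3 KO had 5 of 6 members lower (against 2.03% of genes), with Isg20 at an adjusted p of 0.0615. The count was 6 with DESeq2 (Isg20 adjusted p = 0.022), with limma (0.0403) and with only these groups fitted (0.00136). It was also 6 in the edgeR fit without the 6 b2 libraries with a length trend (5.59e-06), which changes no compared library. It was 3 without EV rest library 1, which was the highest of its group for every member, and Ube2l6 and Herc6 were then not called. Ube2l6 was not called either without SGK3 KO rest library 1 or 3 (adjusted p = 0.105 and 0.0735). At rest in b2, all 6 were lower in the SGK1 KO (against 14.5% of genes) and all 6 in the double KO (against 3.51%). Without the libraries with a length trend these counts were 5, with Isg20 at an adjusted p of 0.0642, and 6. When edgeR was fitted to only the compared groups, Isg20 was not called in the SGK1 KO (adjusted p = 0.18), where libraries E and F had no Isg20 count. Isg15 was then not called in the double KO (adjusted p = 0.0634). The summed macrophage markers of b2 also differed at rest, without overlap. They reached 11203 to 12275 TPM in EV cells, 9356.8 to 10310 TPM in the SGK1 KO and 9308.1 to 10006 TPM in the double KO. Lyz2 made up most of each sum, with a median of 6580.6 TPM over all libraries, against 814.89 TPM for Csf1r, the next highest marker. A difference in the sum is therefore not one shown for the markers as a set.

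With DMXAA, all 6 members were lower than in stimulated EV cells in the SGK3 KO (against 4.7% of genes), in the double KO of b1 (6.21%), in the SGK1 KO (11.4%) and in the double KO of b2 (11.6%). The 2 counts from b2 were also 6 without the libraries with a length trend. The median log2 difference over the 6 genes was -1.38 in the SGK3 KO, -1.61 in the double KO of b1, -1.95 in the SGK1 KO and -1.71 in the double KO of b2, where all tested genes had medians between -0.03 and -0.01. The marker sums of b2 differed with DMXAA as well: they reached 11772 to 13076 TPM in stimulated EV cells, 8401.5 to 9147.8 TPM in the SGK1 KO and 7396 to 8254.2 TPM in the double KO. In b1 the corresponding sums overlapped between stimulated EV cells (7190.5 to 7888.4 TPM), the SGK3 KO (7077.3 to 8499.6 TPM) and the double KO (6416.3 to 8155.2 TPM). These sums too consist mostly of Lyz2, and the part of the marker difference in the b2 results was not tested.

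**Figure D2:**
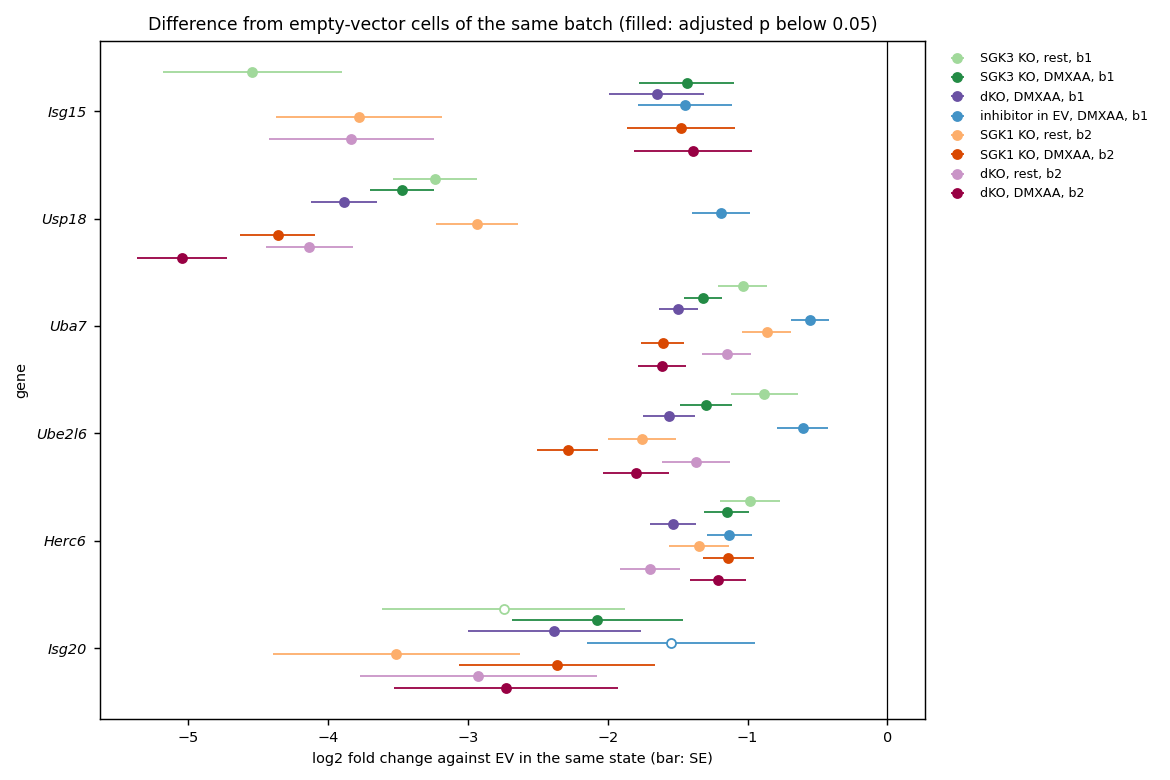
Log2 fold change of each line or of the inhibitor against EV cells in the same state and batch (x axis; bars are standard errors) for the 6 genes (y axis), filled where the adjusted p was below 0.05. All values lie left of 0; for Isg15 the knockout values at rest lie further left than those with DMXAA.

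Isg15, the modifier itself (ENSMUSG00000035692.8, GRCm39 chromosome 4, 156283912 to 156285253, minus strand), had the largest response to DMXAA of the 6 genes. In resting EV cells of b1 its level was 15.2, 5.11 and 5.99 CPM, and with DMXAA it was 196, 170, 186, 204 and 205 CPM. The groups did not overlap, and the change was 21.9-fold (log2 4.45 ± 0.48 SE, edgeR adjusted p = 3.85e-09). In the SGK3 KO, resting levels were 0.286, 0.338 and 0.509 CPM, all far below the lowest EV library, and the stimulated levels were 71.3, 75.1, 70.8, 70.5 and 67.2 CPM. The fold change within the SGK3 KO was 188 (log2 7.55 ± 0.64 SE, adjusted p = 1.42e-11). Against EV cells, Isg15 was 23.3-fold lower in the SGK3 KO at rest and 2.71-fold lower with DMXAA (adjusted p = 3.5e-06 and 0.00283). In these bulk libraries a lower level in every cell and loss of the transcript from some of the cells cannot be told apart.

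The stimulated double KO of b1 had Isg15 at 69.9, 61.6, 57.0, 70.0 and 47.7 CPM, below each EV library and overlapping the SGK3 KO. Its level was 3.14-fold lower than in stimulated EV cells (log2 -1.65 ± 0.34 SE, adjusted p = 0.000503), and the double KO and the SGK3 KO differed by -0.21 ± 0.33 on the log2 scale (adjusted p = 1).

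In b2, Isg15 was at 7.27, 9.58 and 5.17 CPM in resting EV cells and at 40.6, 50.8, 36.1 and 61.1 CPM with DMXAA, a 6.43-fold rise (log2 2.69 ± 0.45 SE, adjusted p = 5.69e-05). Resting SGK1 KO cells had 0.491, 0.739 and 0.370 CPM, and stimulated ones 21.8, 12.8, 24.5 and 8.76 CPM. Both groups lay wholly below the EV group in the same state, although limma did not call the difference with DMXAA (adjusted p = 0.0575). The log2 response was 4.99 ± 0.58 (SE) in the SGK1 KO and 5.13 ± 0.59 in the double KO (adjusted p = 2.76e-08 and 3.68e-08). In the double KO at rest the libraries had 0.499, 0 and 1.06 CPM. With DMXAA, 2 of its libraries had 25.2 CPM each and library X, one of those with a length trend, had 3.71 CPM. The difference of the stimulated double KO from EV cells was -1.39 ± 0.42 (log2, adjusted p = 0.015), and -0.91 (adjusted p = 0.117) without library X. With the b3 reruns added it was -0.90 (adjusted p = 0.126). When edgeR was fitted to only the compared groups, its adjusted p was 0.139. In such fits the Isg15 deficit of the double KO at rest and its response to DMXAA were not called either (adjusted p = 0.0634 and 0.0631).

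The deficit of Isg15 was thus larger at rest than with DMXAA in each line, as log2 differences of -4.54 against -1.44 for the SGK3 KO, -3.78 against -1.48 for the SGK1 KO and -3.83 against -1.39 for the double KO. The test of that difference, the line-by-stimulation interaction, did not pass in the fit over all 46 libraries: it was 3.10 ± 0.74 (SE) in the SGK3 KO (adjusted p = 0.0651), 2.30 ± 0.71 in the SGK1 KO (0.0681) and 2.44 ± 0.72 in the double KO (0.0574). DESeq2 gave adjusted p-values of 0.00379, 0.0379 and 0.0292 for the same 3 differences. Without the 6 libraries with a length trend, edgeR gave 0.000444 in the SGK3 KO and 0.00341 in the double KO. The SGK1 KO difference was then 2.87, with only library D left at rest. With only the compared groups fitted, edgeR called it in the SGK3 KO (0.0194) but not in the SGK1 KO or double KO. Limma, scaling by relative log expression and no filter on low counts called it in no line. Neither the SGK1 KO nor the double KO passed with the b3 reruns added.

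Uba7, the E1 enzyme (ENSMUSG00000032596.15, chromosome 9, 107852704 to 107861259), had no called response in EV cells of either batch. Its level in EV cells of b1 was 31.2, 18.8 and 21.8 CPM at rest and 20.8, 29.3, 22.0, 27.6 and 24.6 CPM with DMXAA, and the groups overlapped. The log2 change was 0.05 ± 0.16 (SE, adjusted p = 0.924) in b1 and 0.16 ± 0.16 (adjusted p = 0.695) in b2. Its level differed more between lines than between states. SGK3 KO cells had 10.8 to 13.5 CPM at rest and 8.34 to 11.2 CPM with DMXAA, below every EV library of b1, at 2.05-fold and 2.49-fold lower levels (adjusted p = 4.83e-05 and 4.88e-10). In the double KO of b1 the 5 libraries lay between 8.38 and 9.23 CPM, 2.82-fold below EV cells (adjusted p = 1.36e-11). In b2 the SGK1 KO was at 11.9 to 15.2 CPM at rest and 7.42 to 11.9 CPM with DMXAA, and the double KO at 10.7 to 11.7 and 7.65 to 11.5 CPM, against 22.4 to 31.2 CPM over all EV libraries of b2. Uba7 fell with DMXAA in the SGK1 KO, by 0.58 ± 0.16 on the log2 scale (SE, adjusted p = 0.00742), and the groups overlapped by 1 library, P, one of those with a length trend. When only these groups were fitted, the adjusted p was 0.16. It was 0.0551 (edgeR) without rest library F, which like rest library E also had a length trend.

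Ube2l6, the E2 enzyme (ENSMUSG00000027078.15, chromosome 2, 84629172 to 84640679), rose modestly in EV cells of b1 and was lower in each line. Its EV levels in b1 were 40.4, 29.1 and 30.6 CPM at rest and 49.9, 55.4, 56.1, 59.4 and 55.5 CPM with DMXAA, with no overlap, a 1.66-fold rise (log2 0.73 ± 0.22 SE, adjusted p = 0.011). In b2 the EV groups overlapped (28.5 to 38.6 CPM at rest and 34.7 to 46.1 CPM with DMXAA) and the log2 change was 0.18 ± 0.22 (adjusted p = 0.783). None of the knockout lines had a called response of Ube2l6 in the fit over all 46 libraries. With only the compared groups fitted it was called higher in the SGK3 KO (log2 0.32, adjusted p = 0.0043), and without library Q it was called lower in the SGK1 KO (-0.61, 0.0479). With DMXAA it was 2.46-fold lower in the SGK3 KO (20.9 to 25.0 CPM), 2.95-fold lower in the double KO of b1 (18.3 to 19.6 CPM), 4.88-fold lower in the SGK1 KO (4.90 to 11.7 CPM) and 3.48-fold lower in the double KO of b2 (6.27 to 15.7 CPM). The adjusted p-values of these 4 comparisons lay between 8.47e-11 and 1.31e-06 (edgeR).

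Herc6, the ligase (ENSMUSG00000029798.12, chromosome 6, 57557985 to 57641617), responded to DMXAA in every line, from a lower level in the knockouts. In EV cells of b1 it was at 9.82, 4.95 and 6.82 CPM at rest and at 26.3, 29.2, 27.8, 29.6 and 28.2 CPM with DMXAA, a 3.92-fold rise (log2 1.97 ± 0.20 SE, adjusted p = 1.22e-10). In the SGK3 KO it went from 3.94, 3.92 and 3.04 CPM to 11.3, 15.4, 11.8, 14.6 and 10.5 CPM, a 3.50-fold rise (log2 1.81 ± 0.20 SE, adjusted p = 2.51e-09). The difference between these responses was -0.16 ± 0.27 (log2, SE, adjusted p = 1), a value that does not show them to be equal. In b2 the log2 response was 0.77 ± 0.20 in EV cells, 0.98 ± 0.20 in the SGK1 KO and 1.25 ± 0.22 in the double KO (adjusted p = 0.00789, 0.000342 and 3.22e-05), with no overlap between rest and DMXAA in any of the 3 lines. When edgeR was fitted to only the compared groups, the SGK1 KO response was not called (adjusted p = 0.0869). Limma did not call the response of EV cells in b2 (adjusted p = 0.0507). Against stimulated EV cells, Herc6 was 2.22-fold lower in the SGK3 KO, 2.89-fold lower in the double KO of b1, 2.199-fold lower in the SGK1 KO and 2.32-fold lower in the double KO of b2 (adjusted p between 6.24e-10 and 8.41e-06).

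Usp18, the ISG15 protease and receptor-level restraint (ENSMUSG00000030107.11, chromosome 6, 121222865 to 121247876), had the largest deficit of the 6 genes with DMXAA in each knockout line. Resting EV cells of b1 had 74.8, 39.7 and 44.4 CPM, and stimulated ones 158, 183, 191, 187 and 167 CPM, a 3.35-fold rise (log2 1.74 ± 0.26 SE, adjusted p = 1.36e-06). SGK3 KO cells had 5.64, 6.20 and 5.02 CPM at rest and 15.8, 16.9, 16.4, 19.0 and 12.0 CPM with DMXAA. The fold change within that line was 2.84 (log2 1.51 ± 0.27 SE, adjusted p = 4.93e-05), yet its stimulated libraries all lay below the resting EV libraries. The level with DMXAA was 11.1-fold lower than in EV cells in the SGK3 KO (adjusted p = 1.24e-14) and 14.8-fold lower in the double KO of b1, whose libraries had 10.6 to 12.7 CPM (adjusted p = 6.54e-16).

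In b2, Usp18 was at 62.7, 61.6 and 54.6 CPM in resting EV cells and at 93.7, 115, 87.6 and 110 CPM with DMXAA. These groups did not overlap, but the change (log2 0.77 ± 0.25 SE) had an adjusted p of 0.0559 in edgeR and 0.0436 in DESeq2. SGK1 KO cells had 8.21, 7.36 and 7.81 CPM at rest and 4.54, 5.69, 6.08 and 3.46 CPM with DMXAA, with every stimulated library below every resting one (log2 -0.66 ± 0.26 SE, adjusted p = 0.0675 in edgeR, 0.0499 in DESeq2 and 0.0407 in limma). The response in the SGK1 KO was lower than that in EV cells by 1.42 ± 0.37 on the log2 scale (adjusted p = 0.0265), the only member with a called interaction in b2 (1 of 6, against 1.09% of genes called lower). This call was lost with the b3 SGK1 KO library added (log2 -0.57, adjusted p = 0.697), without EV rest library B or C, SGK1 KO rest library F or SGK1 KO DMXAA library R (adjusted p from 0.0502 to 0.0593), and with no filter on low counts (0.0511). Without the 6 libraries with a length trend 3 members were called in this interaction, Usp18 and Uba7 lower and Isg15 higher. The double KO had Usp18 at 3.56, 0.902 and 5.76 CPM at rest and at 3.55, 3.05 and 2.65 CPM with DMXAA, overlapping groups (log2 -0.14 ± 0.31 SE, adjusted p = 0.847). Stimulated SGK1 KO and double KO cells were 20.5-fold and 33.0-fold below stimulated EV cells (adjusted p = 2.28e-15 and 3.55e-15).

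Isg20, the exonuclease (ENSMUSG00000039236.19, chromosome 7, 78563172 to 78570144), was the least abundant member in CPM and the one with the widest errors. In EV cells of b1 it was at 2.68, 1.04 and 1.27 CPM at rest and at 6.02, 7.83, 8.03, 10.5 and 9.29 CPM with DMXAA, a 4.99-fold rise (log2 2.32 ± 0.75 SE, adjusted p = 0.0218). In the SGK3 KO it went from 0.159, 0.162 and 0.426 CPM to 1.91, 2.55, 1.41, 2.32 and 1.69 CPM, a 7.93-fold rise (log2 2.99 ± 0.83 SE, adjusted p = 0.00841), where the resting libraries held 10 to 26 counts. The latter call was lost without SGK3 KO rest library 1 or library 2 (adjusted p = 0.0604 and 0.0603). In b2 no line had a called response: log2 changes were 0.52 ± 0.72 in EV cells, 1.67 ± 0.82 in the SGK1 KO and 0.72 ± 0.84 in the double KO (adjusted p = 0.818, 0.137 and 0.664). That of the SGK1 KO was called by limma (0.0293) and without library D or P (4.51e-05 and 0.0281), where leaving out D leaves no resting count. SGK1 KO libraries E and F at rest and P with DMXAA had no Isg20 count. Against EV cells with DMXAA, Isg20 was 4.21-fold lower in the SGK3 KO, 5.22-fold lower in the double KO of b1, 5.15-fold lower in the SGK1 KO and 6.63-fold lower in the double KO of b2 (adjusted p = 0.0193, 0.00547, 0.0137 and 0.0111). These calls rest on few counts: that in the SGK3 KO was lost without library 3 or 5 of its stimulated group (adjusted p = 0.054 and 0.0519) that in the double KO of b2 without library X (0.0825), and that in the SGK1 KO with only these groups fitted (0.0983). At rest Isg20 was 7.59-fold lower in the double KO of b2 (adjusted p = 0.0279), a call lost without any one of the 3 double KO libraries or of EV libraries A and B (adjusted p from 0.063 to 0.14).

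**Figure D3:**
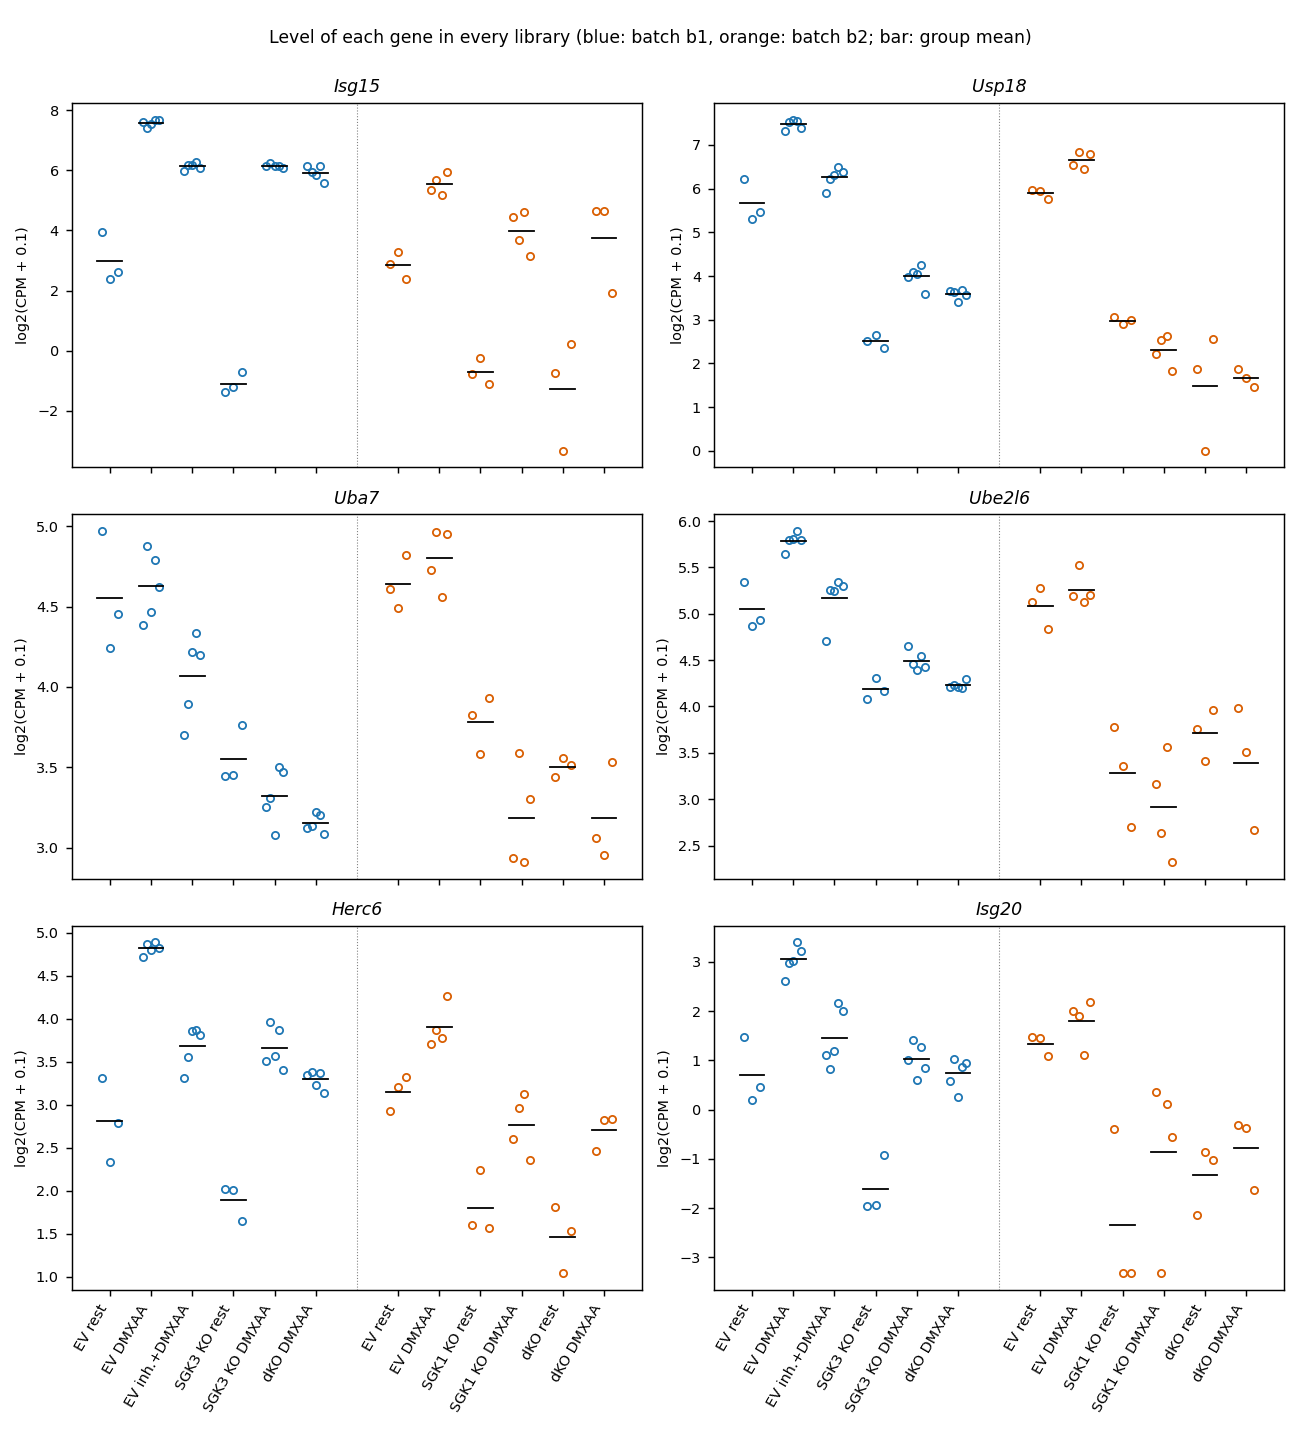
Level of each gene as log2(CPM + 0.1) (y axis) in every library of b1 (blue) and b2 (orange) by line and treatment (x axis; inh. is the inhibitor), with the mean of the log2 values as a bar. Stimulated knockout libraries lie below stimulated EV libraries of their batch for all 6 genes, and the libraries without a count sit at the bottom of the Isg15 and Isg20 panels.

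The inhibitor was compared with DMXAA alone in EV cells, to ask whether blocking the kinases for a short time moved the same genes as the deletions. Isg15, Usp18, Uba7, Ube2l6 and Herc6 were lower and Isg20 did not pass (log2 -1.55 ± 0.60 SE, adjusted p = 0.113), so 5 of 6 were called lower against 4.81% of genes. With only these groups fitted, and without the 6 b2 libraries with a length trend, Isg20 was called too (adjusted p = 0.00128 and 6.75e-05) and the count was 6. Isg15 was at 62.6, 72.6, 72.0, 77.6 and 67.5 CPM, wholly below the group with DMXAA alone, a 2.73-fold difference (log2 -1.45 ± 0.34 SE, adjusted p = 0.00383). With limma this Isg15 difference was not called (adjusted p = 0.0641). Usp18 was at 59.7, 74.9, 79.6, 90.3 and 83.5 CPM, 2.28-fold lower (log2 -1.19 ± 0.21 SE, adjusted p = 0.000101). Herc6 was 2.19-fold lower (9.85 to 14.5 CPM, adjusted p = 1.62e-06), Ube2l6 1.52-fold (25.95 to 40.5 CPM, 0.0284) and Uba7 1.47-fold (12.9 to 20.1 CPM, 0.00457). The call of Ube2l6 was lost without inhibitor library 1, its lowest, or without any one of libraries 2, 3 and 4 of DMXAA alone (adjusted p from 0.0528 to 0.115).

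Against resting EV cells, inhibitor-treated and stimulated cells had Isg15 (8.02-fold) and Herc6 (1.79-fold) higher (2 of 6, against 9.16% of genes; adjusted p = 3.71e-06 and 0.00107). Uba7 was lower by 0.50 ± 0.15 on the log2 scale (1 of 6, against 8.48% of genes called lower; adjusted p = 0.0161), and this call was lost without EV rest library 1 (adjusted p = 0.352) or inhibitor library 1 (0.0591). Usp18 had a log2 difference of 0.55 ± 0.24 (adjusted p = 0.126), with overlapping groups. It was called without EV rest library 1 (0.0217) and without the 6 b2 libraries with a length trend (0.0122).

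The inhibitor and the double KO, both with DMXAA, separated the members. The Isg15 libraries overlapped, with a log2 difference of 0.20 ± 0.33 (SE, adjusted p = 0.861). Usp18 was 6.47-fold higher with the inhibitor than in the double KO (adjusted p = 6.93e-12), Ube2l6 1.94-fold (0.000193) and Uba7 1.92-fold (1.23e-06), each without overlap. These 3 of 6 members compare with 4.55% of genes called higher. When only these groups were fitted, and likewise without the 6 b2 libraries with a length trend, the count was 5, with Herc6 and Isg20 added.

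The knockout lines were also compared with each other. Between the double KO and the SGK3 KO with DMXAA, none of the 6 was called, against 2.16% of genes called in either direction (edgeR). The log2 differences of the members lay between -0.41 and -0.18. With only these groups in the fit, 3 were called lower in the double KO, Usp18, Ube2l6 and Herc6. Between the double KO and the SGK1 KO at rest, Usp18 alone was called, 2.29-fold lower (1 of 6, against 8.96% of genes called lower; adjusted p = 0.00471), and it was not called without the 6 libraries with a length trend (adjusted p = 0.133). With DMXAA none was called between these lines, against 6.63% of genes in either direction, with or without the 6 libraries. At an unadjusted p below 0.05 there was 1 member between the double KO and the SGK3 KO (Herc6) and there were 2 between the stimulated double KO and SGK1 KO (Usp18 and Ube2l6), and DESeq2 and limma called 0 in both.

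Differences between responses were tested as interactions. With edgeR none of the members was called for the SGK3 KO against EV cells (against 0.191% of genes in either direction), where 1 had an unadjusted p below 0.05 and DESeq2 called 1, Isg15. None was called for the double KO against EV cells in b2 (against 2.97%), where 2 had an unadjusted p below 0.05 and DESeq2 called 1, again Isg15. Limma called 0 in both. In the double KO, without the 6 libraries with a length trend, Isg15 was called higher and Usp18 lower. Across batches, the EV response of Herc6 was 2.30-fold larger in b1 than in b2 (log2 1.20 ± 0.27 SE, adjusted p = 0.00482), the only member called (1 of 6, against 1.81% of genes called higher). The same difference was 1.77 ± 0.58 for Isg15 (adjusted p = 0.103) and 0.97 ± 0.35 for Usp18 (0.142). Without EV rest library 1 of b1, these 2 were also called (adjusted p = 0.021 and 0.035), and without the libraries with a length trend 5 members were called, all but Uba7. The deficit of the double KO with DMXAA differed between batches for Usp18 alone (1 of 6, against 4.38% of genes called higher in b1 minus b2): it was smaller in b1 by 1.16 ± 0.35 on the log2 scale (adjusted p = 0.0327). The count was also 1 without the libraries with a length trend. With the b3 reruns added, this difference was 0.27 (adjusted p = 0.939). It also missed the threshold without any one of double KO libraries U and X or EV libraries L and N of b2 (adjusted p from 0.0572 to 0.126).

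Per length, the order of the 6 transcripts changed with stimulation. In resting EV cells of b1 the deposited TPM values put Usp18 first (58.5 ± 21.0, SD, n = 3), then Ube2l6 (44.7 ± 7.28), Isg15 (23.9 ± 15.1), Uba7 (14.1 ± 4.12), Isg20 (3.18 ± 1.72) and Herc6 (3.05 ± 1.04). Of the neighbours in that order, Uba7 and Isg20 alone had library ranges that did not overlap. With DMXAA, Isg15 came first at 500.2 ± 27.7 TPM (SD, n = 5), above Usp18 (192 ± 20.8) and Ube2l6 (69.7 ± 8.35), and these 3 did not overlap. Resting knockout cells had Ube2l6 first in all 3 lines, at 22.4 ± 1.58 TPM in the SGK3 KO, 14.1 ± 4.31 TPM in the SGK1 KO and 17.3 ± 2.48 TPM in the double KO of b2 (SD, n = 3 each). Isg15 was near the bottom there, at 0.994 ± 0.332, 1.62 ± 0.550 and 1.42 ± 1.46 TPM. In the resting SGK1 KO, Ube2l6 overlapped Usp18. With DMXAA, Isg15 had the highest mean TPM in every group, although it overlapped Usp18 in EV cells of b2 and Ube2l6 in the double KO of b2. The second place was held by Usp18 in EV cells, with or without the inhibitor, and by Ube2l6 in all knockout groups of b1 and b2. Ube2l6 overlapped Usp18 in the stimulated SGK1 KO.

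The ratio of Isg15 to Uba7, the modifier over its activating enzyme, summarises this within each library. It was 1.59 ± 0.529 (TPM ratio, SD, n = 3) in resting EV cells of b1 and 35.9 ± 5.90 (n = 5) with DMXAA. In the SGK3 KO it was 0.141 ± 0.0276 at rest, below every EV library, and 32.6 ± 4.14 with DMXAA, a range of 28.0 to 38.4 that overlapped the 27.045 to 43.3 of EV cells. The double KO of b1 had 31.2 ± 5.0 with DMXAA, and inhibitor-treated EV cells had 19.6 ± 2.83, with all 5 libraries below the range of DMXAA alone. In b2 the ratio went from 1.39 ± 0.584 to 7.88 ± 1.20 in EV cells, from 0.188 ± 0.0955 to 9.41 ± 5.60 in the SGK1 KO and from 0.212 ± 0.209 to 9.77 ± 7.36 in the double KO. The stimulated knockout libraries fell on both sides of the EV range of 6.98 to 9.60. P, R and X, those with a length trend, had 4.89, 4.31 and 1.30, and O, Q, T and U had 13.3 to 14.9. Of the latter, O and T had the opposite length trend (slopes of -0.10 and -0.16), as did the stimulated EV libraries K, L and N.

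The ratio of Isg15 to Usp18 separated the stimulated knockout lines from EV cells. With DMXAA in b1 it was 2.64 ± 0.346 in EV cells (SD, n = 5) and 2.26 ± 0.222 with the inhibitor, which overlapped, but 10.7 ± 1.52 in the SGK3 KO and 12.3 ± 1.25 in the double KO, with every library of both lines above every EV library. At rest it was 0.384 ± 0.101 in EV cells and 0.162 ± 0.0693 in the SGK3 KO (n = 3 each). In b2 with DMXAA it was 1.14 ± 0.162 in EV cells, 7.72 ± 3.29 in the SGK1 KO and 13.2 ± 8.42 in the double KO, where every library of both lines again exceeded the EV range of 0.996 to 1.37. The length-trend libraries P, R and X had the lowest values of these lines (4.37, 5.50 and 3.43). These ratios are descriptions without a test.

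**Figure D4:**
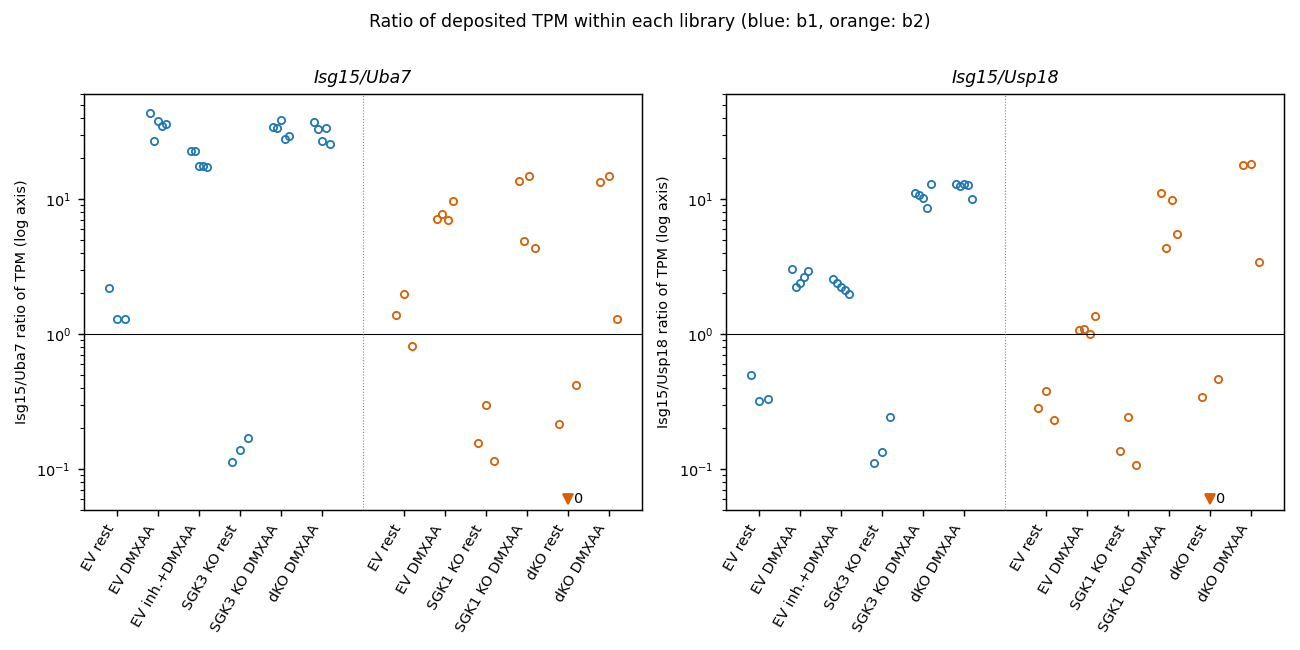
Ratio of deposited TPM of Isg15 to Uba7 (left) and of Isg15 to Usp18 (right) in each library of b1 (blue) and b2 (orange), on a log axis with a line at 1. The triangle marks the resting double KO library with no Isg15 count. With DMXAA the Isg15 to Uba7 ratios of EV and knockout libraries of b1 overlap, whereas the Isg15 to Usp18 ratios of the knockouts lie above those of EV cells.

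The batch b3 reruns gave 1 SGK1 KO and 2 double KO libraries with DMXAA and no mapped control. Isg15 was at 34.7 CPM in the SGK1 KO library and at 39.5 and 33.2 CPM in the double KO libraries, above every library of those lines in b2. Usp18 was at 25.1 CPM in the SGK1 KO library, against 3.46 to 6.08 CPM in b2, and at 9.43 and 9.59 CPM in the double KO libraries, against 2.65 to 3.55 CPM. Ube2l6 was above every b2 library of the same line too, at 14.8 CPM in the SGK1 KO library and 16.7 and 19.3 CPM in the double KO libraries. Isg20 was above them in the double KO (1.54 and 1.64 CPM, against 0.221 to 0.701 CPM) and within the b2 range in the SGK1 KO (1.004 CPM). Uba7 (9.41 to 11.8 CPM) lay within the b2 range of each line, and so did Herc6 (6.52 to 8.81 CPM) except for 1 double KO library above it. The batch and these levels cannot be told apart.

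Across libraries, the 6 genes did not follow a single course. Pearson's r on log2(CPM + 0.1) over the 26 libraries of b1 and the 20 of b2, which share treatments, lines and depth differences, was 0.90 and 0.88 for Isg15 with Herc6 but 0.17 and 0.24 for Isg15 with Uba7. Usp18 and Ube2l6 had 0.97 and 0.86, and Usp18 and Uba7 0.84 and 0.90. Among all tested genes outside the 6, those most like each member were chosen by the lower of the r values in the 2 batches. Isg15 was most like Ifit3 (0.97 and 0.97), Oasl2 and Marcksl1. Usp18 was most like Oas1a (0.99 and 0.97), Parp9 and Lgals3bp, and Uba7 like Parp12 (0.96 and 0.96) and Tap1. Ube2l6 was most like Bst2 (0.96 and 0.97), Ifitm3 and H2-K1, Herc6 like A530040E14Rik (0.95 and 0.93), Tor3a and P4ha1, and Isg20 like Ogfr (0.86 and 0.91), Daxx and Gm11127. These values describe the libraries and carry no test.

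Interferon beta, which drives many of these genes in stimulated cells, is given beside them. Ifnb1 had no count in any resting library of b1 or b2. With DMXAA it was at 28.0 to 51.3 CPM in EV cells of b1, 6.50 to 7.55 CPM with the inhibitor, 4.20 to 7.06 CPM in the SGK3 KO and 1.38 to 3.00 CPM in the double KO. In b2 it was at 7.71 to 23.3 CPM in EV cells, 0 to 1.69 CPM in the SGK1 KO and 0.478 to 1.67 CPM in the double KO. The resting deficits of the 6 genes were measured where no Ifnb1 count was present in either group. Other interferon genes were not examined here, and the cause of these deficits was not tested.

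Genes that act around these 6 were read as lists. Among 7 genes of the type I interferon receptor and of ISGF3, the complex that binds the ISRE, 3 rose and 2 fell with DMXAA in EV cells of b1 (against 10.8% of all tested genes called higher and 10.3% lower). Stat2 (log2 1.12 ± 0.12 SE) and Irf9 (0.73 ± 0.10) had the largest changes, and the median over the list was 0.12. In b2 none rose and 1 fell (against 4.74% and 3.06%). At rest, 2 of 7 were lower in the SGK3 KO (against 2.03%), among them Irf9 (-1.44 ± 0.11). In b2 the SGK1 KO at rest had 3 lower and 1 higher (against 14.5% and 11.3%), and the double KO 4 lower and 1 higher (3.51% and 2.75%). With DMXAA, 3 were lower and 1 higher in the SGK3 KO and in the double KO of b1, and 4 lower and 1 higher in the SGK1 KO and the double KO of b2. All tested genes were called lower at the shares given above for the 6 genes, and higher at 6.12% in the SGK3 KO, 7.15% in the double KO of b1, 9.43% in the SGK1 KO and 10% in the double KO of b2; these shares also hold for the lists that follow. With DMXAA, Stat2 was at -1.11 ± 0.10 in the SGK3 KO, and Irf9 was at -1.69 ± 0.10 in the SGK1 KO. The medians of this list against EV cells lay between -0.29 and -0.09.

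Of 10 other ISG15 ligases and deconjugating proteases, 9 were tested. With DMXAA in EV cells of b1, 3 rose and 3 fell (against 10.8% and 10.3% of all genes), led by Trim25 (log2 1.21 ± 0.08 SE), a ligase that can attach ISG15, and Usp2 (-0.77 ± 0.10), a protease able to cleave it. Against stimulated EV cells, Usp2 was higher in every line: by 0.91 ± 0.09 in the SGK3 KO, 1.08 ± 0.09 in the double KO of b1, 1.00 ± 0.10 in the SGK1 KO and 1.33 ± 0.11 in the double KO of b2. The list as a whole had 2 higher and 1 lower of 9 in the SGK3 KO, with a median of -0.01. The 9 E1 enzymes of ubiquitin and of other modifiers gave a contrast to Uba7. In the SGK3 KO with DMXAA, 1 was higher and none lower, and in the double KO of b1 2 were higher and none lower, and Uba7 was lower in both. In the SGK1 KO and the double KO of b2, 2 and 3 of the 9 were lower, of which Sae1 at -0.28 ± 0.07 and -0.41 ± 0.07 was the largest called decrease, and 1 was higher in each, Atg7 at 0.38 ± 0.08 and 0.45 ± 0.09. Of 14 relatives of the members (ubiquitin genes, Ube2l3, the large HERC genes and exonucleases akin to Isg20), 12 were tested. In the SGK1 KO at rest 4 were higher, led by Herc1 (0.84 ± 0.22), and 4 lower, against 11.3% and 14.5% of all genes. Of the 3 SGK1 KO libraries there, 2 were among those with a length trend, and without those libraries the count of all genes called in that comparison was 665 in place of 4732. In the double KO with DMXAA 1 was higher in b1 and 2 were lower in b2.

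Some members overlap annotated neighbours, and whether their counts share reads was not examined. In the annotation Usp18 overlaps Gm44148 on the opposite strand (at most 33 counts), Uba7 overlaps Gm20661 (at most 15 counts), and Herc6 overlaps Gm45193 (at most 63 counts) and Gm19244 (at most 8 counts). Whether counting used strand is not given in the sources used here.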

How the data were processed

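RAW264.7 RNA was sequenced in 50 libraries. The authors deposited estimated counts and TPM per gene; the reads were aligned with STAR 2.7.9a to GRCm39 and StringTie 2.2.0 was used, per the submitters' processing notes, and the counts were rounded here. In R 4.3.3, edgeR 4.0.16 (TMM scaling, expression filter by group, robust quasi-likelihood F test, 1 coefficient per group of each batch) was fitted to the 46 libraries of b1 and b2, with Benjamini-Hochberg adjustment over 18315 genes and a threshold of 0.05; its SE is the log2 fold change over the root of F. CPM use TMM-scaled totals and compare libraries; the deposited TPM compare genes. Alternatives used DESeq2 1.42.0, limma 3.58.1 on log2(TPM + 0.1), other scaling, filters and libraries. For leaving out libraries, the genes and trended dispersion of the full fit were kept. The procedure was tested on simulated counts.

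The 6 genes, the lists and the tests were chosen with earlier results of these data known. Named from each list are at most the 2 called genes with the largest change in a comparison, and for each member up to 3 genes most like it; some genes that these rules name are not reported here. Of the list genes, Usp41 had no row and is not analysed here.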

Additional observations from a re-analysis of the deposited data

Results flagged for a closer look

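Ube2l6 in inhibitor library 1 of b1 (25.95 CPM) lay apart from the 4 other libraries of its group, which had 37.8 to 40.5 CPM. It was the only such value among 36 combinations of gene and group examined, which are the 6 genes in the same 6 groups of 4 or 5 libraries and so share libraries; chance gives about 1 in 20 independent groups. The log2 response of Usp18 to DMXAA was lower in the SGK1 KO than in EV cells of b2 (difference -1.42, adjusted p = 0.0265). The deficit of Usp18 in the stimulated double KO differed between b1 and b2 (log2 difference 1.16, adjusted p = 0.0327). The EV response of Herc6 differed between b1 and b2 (log2 difference 1.20, adjusted p = 0.00482).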

How the results depend on the processing

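Scaling by relative log expression changed no call among 138 member results, of which 72 were called, and none of 144 group levels moved by 1 SD under other scaling. Across all alternatives the sign changed 52 times, never in a called result. Few counts limit Isg20 and, in resting knockouts, Isg15.

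The number of members called moved by over 1.5 times as follows, and unless given in the report the cause was not tested. With no filter it was 0 for the SGK1 KO interaction and 0 for the double KO deficit between batches. With DESeq2 it was 1, 3 and 1 for the SGK3 KO, SGK1 KO and double KO interactions. With only the compared groups fitted it was 3 for double KO against SGK3 KO, 5 for inhibitor against double KO, 1 for the DMXAA response of the SGK1 KO, 1 for that of the double KO, 0 for double KO against SGK1 KO at rest, 1 for the SGK3 KO interaction and 3 for the EV response between batches. With limma it was 1 for the EV response in b2, 5 for that of the SGK1 KO and 0 for the double KO deficit between batches. Without the 6 libraries with a length trend it was 5 for inhibitor against double KO, 0 for double KO against SGK1 KO at rest, 1, 3 and 2 for the SGK3 KO, SGK1 KO and double KO interactions and 5 for the EV response between batches. With the b3 reruns it was 0 for the SGK1 KO interaction and 0 for the double KO deficit between batches.

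Leaving out single libraries gave 3 to 5 members for the EV response in b1, 3 to 5 for SGK3 KO against EV at rest, 1 to 2 for the EV response in b2, 1 to 3 for the EV response between batches (3 without EV rest 1), 1 to 2 for double KO against SGK1 KO at rest (2 without SGK1 KO rest D) and 0 to 1 for them with DMXAA (1 without double KO X or SGK1 KO Q). The range was 0 to 1 for the SGK3 KO interaction (1 without EV rest 2), 0 to 2 for the SGK1 KO one (0 without EV rest B or SGK1 KO rest F, 2 without SGK1 KO rest D or DMXAA P), 0 to 1 for the double KO one (1 without double KO X, H or I) and 0 to 1 for the double KO deficit between batches (0 without double KO U or X or EV L or N).

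The numbers 1 to 5 of b1 did not pair the libraries: of 57 same-numbered pairs, 8 correlated above 0.1 (r from -0.284 to 0.217), and 5 of 26 libraries correlated best with their own number. With the replicate block, Uba7 had -0.0213 for the EV response in b1, Isg20 lost its call there (log2 2.13, adjusted p = 0.0622), and no other member call of b1 changed.

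Signs changed in these log2 values. For double KO against SGK1 KO with DMXAA, Uba7 was 0.0112 with the groups alone, 0.12 with limma and 0.0869 without the length-trend libraries, Isg15 -0.22 and Isg20 0.17 with limma, and Herc6 0.0449 and Isg20 0.36 with the reruns. At rest, without the length-trend libraries, Isg15 was 0.61, Herc6 0.0739 and Isg20 -1.38. For the double KO deficit between batches, Isg15 was 0.0211 and Uba7 -0.074 with limma, Ube2l6 -0.0493 and Isg20 -0.0335 without the length-trend libraries, and Ube2l6 -0.088 and Isg20 -0.51 with the reruns. With limma, Ube2l6 was -0.0548 for inhibitor and DMXAA against rest and Usp18 0.20 for the double KO response, and with the reruns Usp18 was 0.20 for the SGK1 KO response, and 0.74 (Ube2l6 0.0749) for the double KO response.

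Leaving out single libraries gave ranges across 0 for the double KO deficit between batches (Isg15 -0.744 to 0.0685, Ube2l6 -0.0498 to 0.569, Isg20 -0.0326 to 0.588), the EV response in b1 (Uba7 -0.10 to 0.29) and between batches (Uba7 -0.26 to 0.12), the SGK3 KO interaction (Herc6 -0.455 to 0.0448), the double KO response (Usp18 -0.59 to 0.44, Ube2l6 -0.582 to 0.0368) and interaction (Isg20 -0.20 to 0.57), double KO against SGK1 KO with DMXAA (Isg15 -0.24 to 0.57, Uba7 -0.21 to 0.15, Herc6 -0.197 to 0.0588, Isg20 -0.781 to 0.0201) and at rest (Isg15 -0.98 to 0.51, Isg20 -0.0177 to 7.62, the upper end with both remaining SGK1 KO libraries at 0 counts, so that it depends on the prior count).

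Counts of all genes called moved by over 1.5 times under some alternative in 22 of 23 comparisons, given with the count reported and the moved counts. In b1 these were the SGK3 KO response (3029, moved to 5339), SGK3 KO against EV at rest (883, moved to 1358 to 2359), with DMXAA (1982, moved to 3049 to 3496), double KO against EV with DMXAA in b1 (2446, moved to 4374), inhibitor against none (1558, moved to 2636 to 2868), inhibitor and DMXAA against rest (3231, moved to 5123), double KO against SGK3 KO (396, moved to 664 to 835), inhibitor against double KO (2036, moved to 3090 to 3837). In b2 they were the EV response in b2 (1428, moved to 2357), the SGK1 KO response (4410, moved to 763 to 2883), the double KO response (2555, moved to 475), SGK1 KO against EV at rest (4732, moved to 248 to 2013), with DMXAA (3815, moved to 1572 to 2305), double KO against EV at rest in b2 (1147, moved to 535 to 750), with DMXAA (3961, moved to 1907 to 2615), double KO against SGK1 KO at rest (3573, moved to 69 to 1994), with DMXAA (1215, moved to 57). For the remaining comparisons they were the SGK3 KO interaction (35, moved to 20 to 170), the SGK1 KO interaction (519, moved to 80 to 1553), the double KO interaction (544, moved to 40 to 847), the EV response between batches (588, moved to 386 to 1217), the double KO deficit between batches (1332, moved to 340 to 2115).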

Other observations

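The rerun EV library of b3, whose title says untreated and whose treatment field says DMXAA, had Isg15 at 45.9 CPM, Usp18 at 90.5, Uba7 at 25.9, Ube2l6 at 41.3, Herc6 at 14.2 and Isg20 at 3.92 CPM. Its Isg15 to Uba7 ratio was 8.20 and its Isg15 to Usp18 ratio 1.23 (deposited TPM). It entered no comparison.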
